A study of Mus musculus with 12 samples.

Results

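Ribosome footprints of Eif4g2 heterozygous and wild-type organoids were compared, which took 4 of the 12 libraries of the series: 2 ribosome profiling libraries of genotype Eif4g2+/- (Het) and 2 of genotype Eif4g2+/+ (WT). The libraries were chosen by assay and genotype label, and no measured value entered the choice. All were made from mouse small intestine organoids grown for 3 days with Noggin, R-spondin-1 and epithelial growth factor in the basal medium, and every genotype, WT included, received 0.5 µM 4-OHT (4-hydroxytamoxifen) for 24 hours. Libraries are named as in their labels: Ribo_6026_WT, Ribo_6028_WT, Ribo_6136_hetero and Ribo_6139_hetero. Ribo_6070_homo and Ribo_6072_homo (Eif4g2-/-, KO) entered the model for the scaling and the estimate of the spread, and some of their values are given for comparison. The agent that 4-OHT acts on, and whether a number stands for an animal, a line or a culture, were not given in the sources used here. P-values therefore measure the spread between these libraries, which may be technical.

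Eif4g2 encodes a member of the eIF4G family of translation initiation scaffolds, also called DAP5 or p97. It binds the helicase eIF4A and the complex eIF3 but lacks the region by which eIF4G1 binds the cap-binding protein eIF4E, and it is known for initiation on a subset of mRNAs that depend less on eIF4E. Ribosome profiling digests RNA that ribosomes do not cover and sequences the protected fragments, so the count on a coding region reflects both how much of its mRNA is present and how many ribosomes sit on it.

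The measured unit was a set of transcripts with the same counts in all 12 tables. Of 45864 such units with a count anywhere in the series, 44220 had a footprint in at least 1 of the 4 WT and Het libraries, and 31781 passed the count filter and were tested. Each carries a whole number taken as the length of its counted coding region in codons. Levels are CPM, a unit's counts per 1000000 of the library's unit counts, scaled by the trimmed mean of M-values (TMM). The tables hold transcript IDs and nothing that pairs them with genes, so the level of Eif4g2, intestinal cell type markers and sequences were not analysed here, and neither the genotype nor the tissue labels were checked against a gene. Isoforms that share most of their reads remain separate units when 1 count differs. Some counts of units are therefore given beside counts of transcript groups, in which neighbouring rows with near-matching profiles were joined. Where only units are counted, a transcript group may be counted more than once.

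Depth differed within a genotype more than between genotypes. The 4 libraries held 13527369, 4828528, 9613588 and 13298316 unit counts in Ribo_6026_WT, Ribo_6028_WT, Ribo_6136_hetero and Ribo_6139_hetero. Ribo_6028_WT was thus the shallowest and set the precision of the WT level. TMM factors ran from 0.992 to 1.01 in these 4 libraries. In a bulk library, fewer cells of a type and fewer footprints per cell cannot be told apart.

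Footprints of most units differed little between Het and WT. The change was smaller than 1.5-fold in 94.3% of the 31781 tested units and smaller than 2-fold in 98.6%. The median change was 0.0011 on the log2 scale, with quartiles of -0.14 and 0.14. In 57.5% of units the 95% interval of the change lay wholly within 1.5-fold in either direction. For the remaining units the data leave a change of that size possible.

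By edgeR's quasi-likelihood test 311 units were called at an adjusted p under 0.05, which is 0.979% of those tested. The calls were split almost evenly, 157 higher in Het (0.494% of units tested) and 154 lower (0.485%). The balance moved with the setting, to 101 higher and 167 lower without Ribo_6028_WT and to 195 and 150 with at least 10 counts in each library. The 311 calls came from 106 transcript groups that rose and 108 that fell. The called changes had a median size of 0.58 on the log2 scale, and none was smaller than 0.28. Among the larger changes falls outnumbered rises: 57 called units fell by at least 2-fold and 30 rose by as much. Beyond 4-fold 10 units rose and 5 fell. The transcript groups behind these units were not counted. Both Het libraries lay on the same side of both WT libraries in all 311 called units, against 20.6% of all tested units with both Het above and 20.4% with both below. Since the calls were made on these same libraries, this follows from the selection and is no separate support for them. Every library bore on the calls. There were 116 without Ribo_6139_hetero, 181 without Ribo_6136_hetero, 268 without Ribo_6028_WT and 411 without Ribo_6026_WT, of which 91, 146, 196 and 177 were among the 311. DESeq2 called 128 units, all of them among the 311, and edgeR with only the WT and Het libraries fitted called 174.

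**Figure D1:**
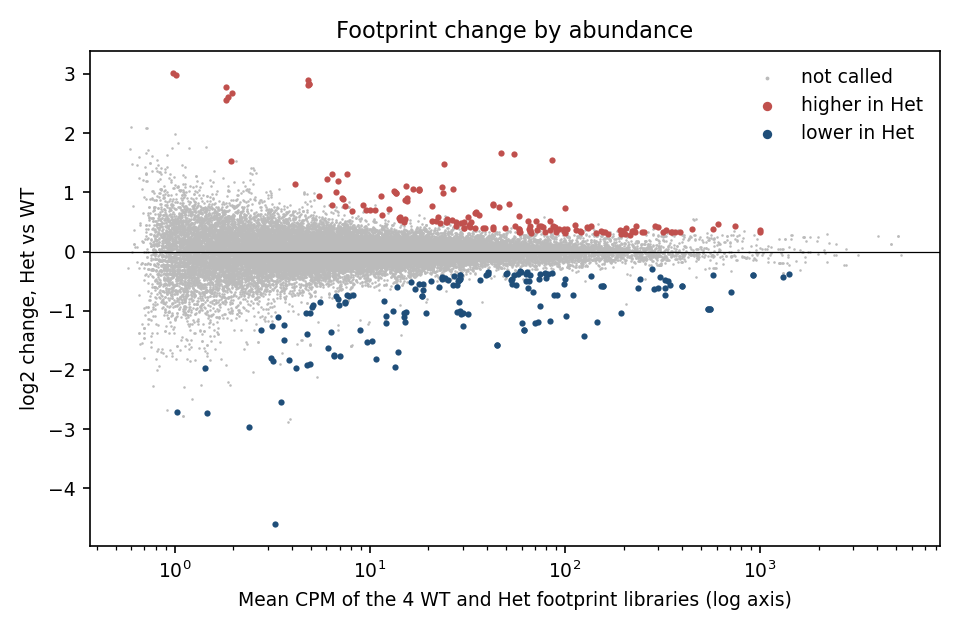
Each point is 1 of 31781 tested units, with the mean CPM of the 4 WT and Het footprint libraries on a log axis and the Het vs WT log2 change on the vertical axis. The cloud narrows as abundance rises, and the 157 called rises (red) and 154 called falls (blue) lie along its upper and lower edges.

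More units were called in the most abundant class than in any other, in both directions. Units were divided into 5 classes of equal size by mean CPM, from class 1 (0.579 to 2.42 CPM, median 15 counts a library) to class 5 (29.2 to 5295 CPM, median 625 counts). In class 1, 11 of 6357 units were called, 7 higher and 4 lower. Class 2 held 25 calls, 6 higher and 19 lower, class 3 held 36, 16 and 20, and class 4 held 68, 33 and 35. In class 5, 171 of 6356 units (2.69%) were called, 95 higher and 76 lower. Thus 55.0% of all calls were made among the most abundant units.

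Called changes were smaller in the abundant classes. Called rises had medians of 2.67, 2.82, 0.84, 0.78 and 0.38 on the log2 scale from class 1 to class 5. Called falls had medians of -2.72, -1.40, -1.15, -0.57 and -0.56. The median standard error of a change fell from 0.39 in class 1 to 0.16 in class 3 and 0.079 in class 5. A change within 1.5-fold could be bounded for 0 of the class 1 units, for 22.4% in class 2, 73.5% in class 3, 93.9% in class 4 and 97.9% in class 5.

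The median change stayed near 0 at each abundance. It was -0.00090, -0.0073, 0.0061, 0.0032 and 0.00017 on the log2 scale from class 1 to class 5. Across the 31781 units the Spearman correlation of mean CPM with the signed change was 0.010, and with the size of the change -0.41. These correlations run across units that share libraries and depth, and units are not replicates. Ranking units by the KO libraries gave 31, 18, 45, 62 and 155 calls in the 5 classes. Those libraries are not on either side of the comparison, but they entered the fit that made the calls.

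The spread of Het minus WT differences was then set against the spread between replicates. For this, levels were taken as log2(CPM + 0.1). If libraries of different genotypes differed no more than replicates do, the difference between 2 means of 2 libraries would have a known interquartile range. This is the range of a replicate difference divided by the square root of 2. In class 1 the observed range was 0.62 and the range computed from the replicates 0.56. In class 3 these were 0.28 and 0.25, and in class 5 they were 0.17 and 0.12. The observed range was the larger in every class. Genotype and organoid number change together in these libraries, so their parts in this cannot be told apart, and units are not replicates.

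**Figure D2:**
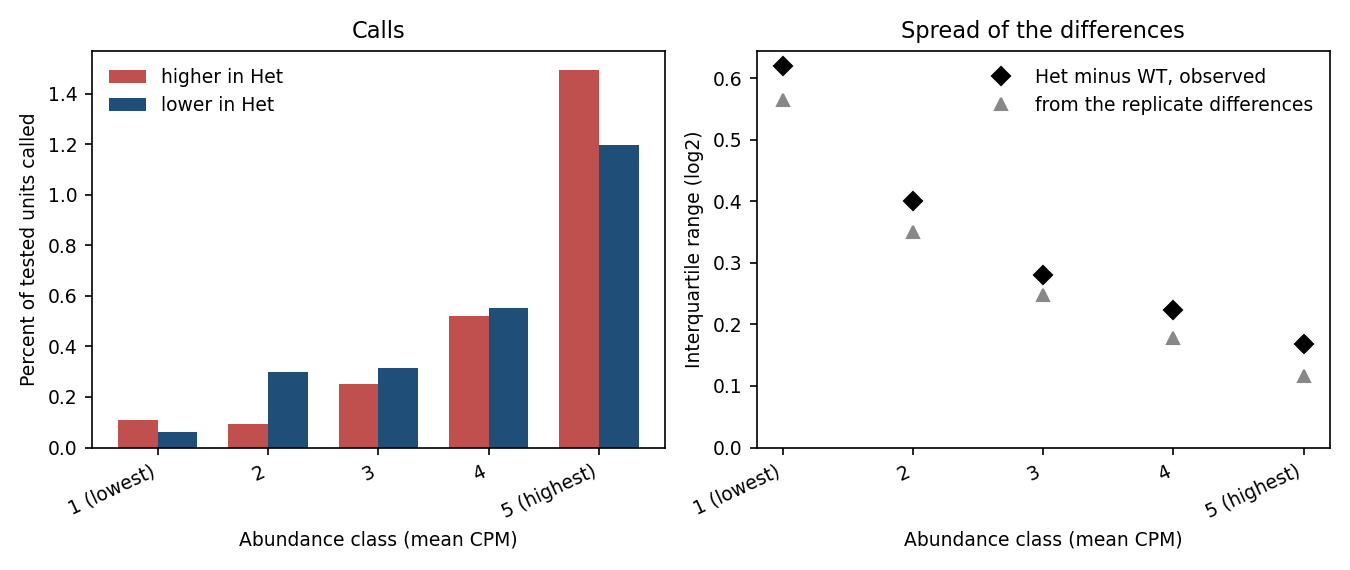
Left, percent of tested units called higher (red) and lower (blue) in Het for the 5 abundance classes of 6356 or 6357 units. Right, interquartile range in log2 units of the Het minus WT difference (diamonds) and the range computed from the replicate differences (triangles): calls reach 2.69% of units in class 5 while the spread falls from 0.62 to 0.17.

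Among the 100 most abundant units, from 856 to 5295 CPM, 6 were called, 2 higher and 4 lower. Their median change was -0.020, and in 97 of them the interval lay within 1.5-fold. The replicates also differed at this end: the median of Ribo_6026_WT minus Ribo_6028_WT was -0.11 on the log2 scale over these units, and that of Ribo_6136_hetero minus Ribo_6139_hetero was 0.074.

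Length was examined next, in 6 classes of codons. Levels per codon fell with length in all 4 libraries: median CPM per 100 codons was 5.17, 5.15, 5.10 and 5.23 in Ribo_6026_WT, Ribo_6028_WT, Ribo_6136_hetero and Ribo_6139_hetero for units of up to 90 codons. It was 2.35, 2.36, 2.33 and 2.36 for 300 to under 600 codons and 1.45, 1.35, 1.47 and 1.32 for 2000 codons or more. The count filter left a similar lowest level at every length, 0.579 CPM in the shortest class and 0.684 CPM in the longest. A short unit thus needed more CPM per codon to be tested, so the decline in these medians is partly set by the filter. In the longest class the 2 libraries of a genotype differed from each other by more than the genotypes did.

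The median Het vs WT change declined with length. It was 0.020 on the log2 scale for the 3686 units of up to 90 codons, 0.011 for 12138 units of 91 to under 300, and 0.0066 for 8209 units of 300 to under 600. It was -0.0046 for 4603 units of 600 to under 1000, -0.039 for 2594 units of 1000 to under 2000, and -0.075 for 551 units of 2000 codons or more. Within the extremes the order went on: units of up to 30 codons (249) had a median of 0.075, those of 2000 to under 3000 codons (398) had -0.068 and those of 3000 or more (153) had -0.083. All of these medians are small beside the spread of single units, whose quartiles were -0.17 and 0.21 in the shortest class and -0.19 and 0.035 in the longest. Across all tested units the Spearman correlation of length with the change was -0.067, against -0.016 with the difference between the WT libraries and 0.062 with that between the Het libraries.

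The decline differed in size between the libraries. In units of 2000 codons or more the median deviation from the mean of the 4 libraries was 0.053 in Ribo_6026_WT, 0.012 in Ribo_6028_WT, 0.0050 in Ribo_6136_hetero and -0.059 in Ribo_6139_hetero. In units of up to 90 codons it was 0.0038, -0.010, 0.0080 and 0.026 in the same order. The longest minus the shortest class, a contrast chosen after the values were seen, gave 0.049 and 0.022 in WT against -0.0031 and -0.085 in Het, a mean of 0.036 ± 0.019 in WT and -0.044 ± 0.058 in Het (SD, n = 2). The genotypes did not overlap, but 2 libraries against 2 allow no two-sided exact permutation p below 0.333, which is the value obtained. Without Ribo_6139_hetero the median change was -0.027 in units of 2000 codons or more and -4.3e-05 in those of up to 90 codons. Without Ribo_6026_WT it was -0.041 in the longest class.

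**Figure D3:**
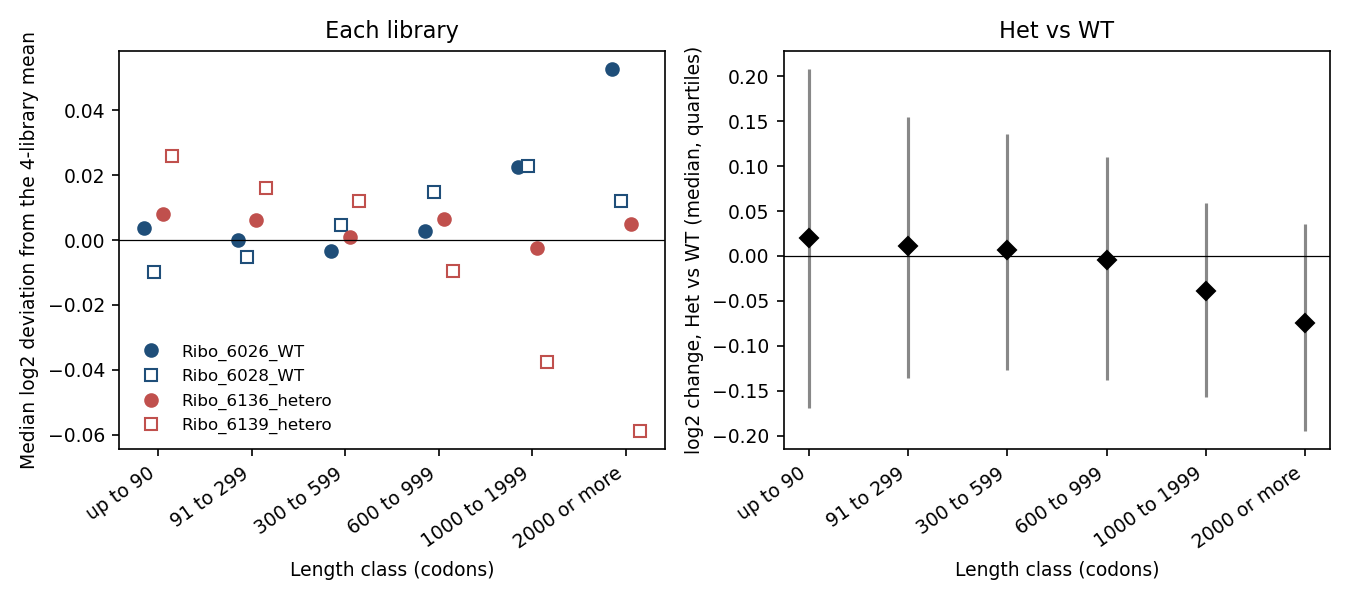
Left, median log2 deviation of each library from the mean of the 4 libraries for the 6 length classes in codons, WT blue and Het red. Right, median Het vs WT log2 change (diamonds) with quartiles (lines): the median passes from 0.020 in the shortest to -0.075 in the longest class, and Ribo_6139_hetero is the lowest of the 4 libraries in the 3 longest classes.

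Single units that stayed on 1 side in both replicates showed the same order. Both Het libraries lay below both WT libraries in 34.1% of units of 2000 codons or more and in 29.6% of those of 1000 to under 2000, against 20.4% of all tested units. Both lay above in 10.5% and 14.996%, against 20.6% of all. In units of up to 90 codons the figures were 17.2% below and 21.3% above. Since a deviation of 1 library is shared by all units of a class, these shares do not count independent events.

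Called units were few in each length class, and their share was near the 0.979% of all units in most: 0.868%, 0.914%, 1.06%, 1.15% and 0.694% from the shortest class to 1000 to under 2000 codons. In units of 2000 codons or more 10 of 551 were called (1.81%), 2 higher and 8 lower, the falls from 6 transcript groups. From 1000 to under 2000 codons 18 were called, 5 higher and 13 lower. Long units were often abundant, and 320 of the 551 longest were in abundance class 5, where 2.69% of units of all lengths were called. Within class 5, 6 of these 320 were called (1.875%), as were 2 of the 886 units of 1000 to under 2000 codons (0.226%). Both shares were below that of class 5. From 91 to under 300 codons 66 rose and 45 fell, from 300 to under 600 codons 47 and 40, and from 600 to under 1000 codons 27 and 26. In units of up to 90 codons 10 rose and 22 fell, from 10 and 15 transcript groups, although the median change of that class was above 0. Of those 22 falls 21 were in units of 61 to 90 codons.

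The share of footprints on each length class gave a measure that needs no scaling between libraries. Units of up to 90 codons held 5.37% and 5.38% of counts in the WT libraries and 4.82% and 4.97% in the Het libraries. The Het libraries were lower by 0.478 percentage points in the mean, 4.90% ± 0.11 against 5.37% ± 0.014 (SD, n = 2), and the genotypes did not overlap. The KO libraries, given for comparison, held 4.38% and 4.48%. The exact permutation p was 0.333, the smallest that 2 against 2 allow. Leaving out each library in turn gave differences from -0.555 to -0.401 points, and joining rows into transcript groups gave -0.455.

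Units of 300 to under 600 codons were the other class without overlap. They held 27.9% and 27.7% of counts in WT and 28.2% and 28.7% in Het, a difference of 0.579 points with an exact permutation p of 0.333. Without Ribo_6139_hetero it was 0.325 points. In the remaining 4 classes WT and Het overlapped. Units of 2000 codons or more held 6.12% and 5.77% in WT and 6.07% and 5.72% in Het, so the 2 libraries of a genotype differed by more than the genotype means, 5.95% and 5.90%. The lower medians of long units thus did not appear in their share of counts. In this class 490 units lost share and 265 gained, but the 10 that gained most added 0.148 points, and without these and the 10 that lost most the class differed by -0.135. From 1000 to under 2000 codons 2093 units lost share and 1331 gained, the 10 largest gains added 0.330 points, and the class without both sets of 10 differed by -0.245.

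**Figure D4:**
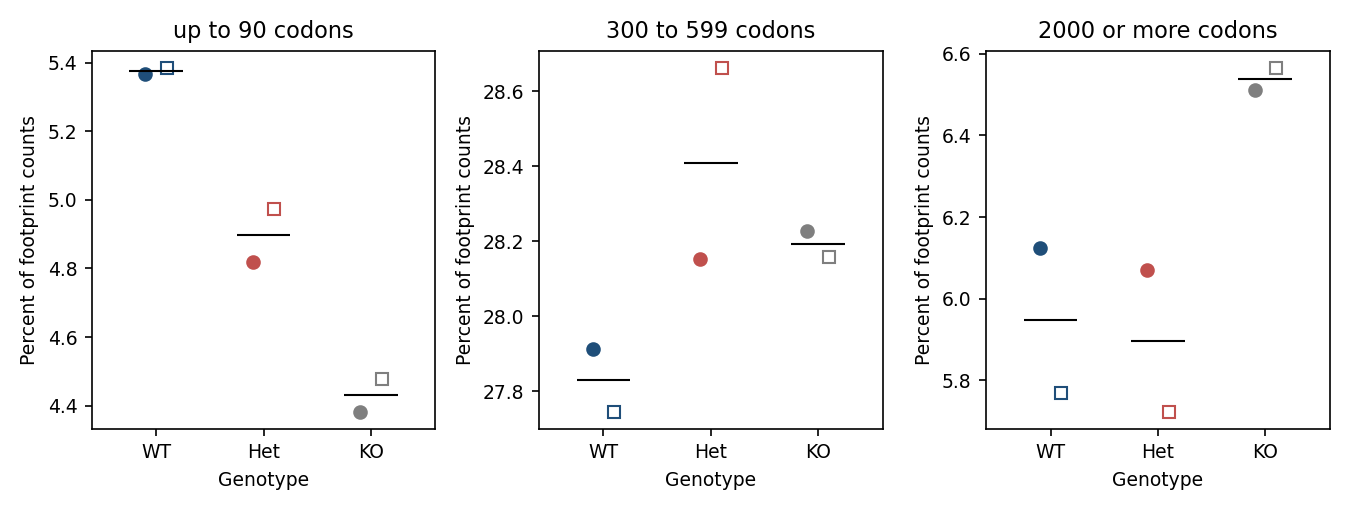
Percent of each footprint library's unit counts on units of up to 90, 300 to under 600 and 2000 or more codons, with filled and open points for the lower- and higher-numbered library and bars for genotype means. The vertical axes do not start at 0. Short units hold 5.37% and 5.38% in WT and 4.82% and 4.97% in Het, whereas WT and Het overlap for the longest units.

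The lower share of short units lay in the abundant ones. The 258 tested units of up to 90 codons in abundance class 5 held 3.64% and 3.71% of counts in WT and 3.12% and 3.21% in Het, a difference of -0.510 points. In the other 4 abundance classes the units of that length differed by 0.0035, -0.0027, 0.011 and 0.020 points from class 1 to class 4. Of the 258 units 23 were called (8.91%, against 2.69% in class 5 of all lengths), 18 lower from 11 transcript groups and 5 higher from 5. Their median change was nevertheless 0.011, so the shift lay in some of them and not in the class as a whole. Without Ribo_6136_hetero only 5 of the 258 were called and without Ribo_6139_hetero 14, and DESeq2 called 7. All calls were falls in those 3 settings.

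The -0.478 points of the shortest class were the net of falls that summed to -0.728 and rises that summed to 0.250. The 10 short units that lost the most share made up -0.360 points of these falls and belonged to 5 transcript groups. They were 74 to 86 codons long, and 5 of the 10 were called. The first, of 74 codons, held 0.131% and 0.169% of counts in WT and 0.115% and 0.104% in Het, with a log2 change of -0.45 (SE 0.11, edgeR adjusted p 0.054), which is just outside the threshold. A unit of 86 codons held 0.0872% and 0.0592% in WT and 0.0316% and 0.0431% in Het, a log2 change of -0.98 (SE 0.14, edgeR adjusted p 0.0018). In both the Het libraries were below the WT libraries. Counted over transcript groups, the 5 largest falls summed to -0.298 points, and the class without these and the 5 largest rises differed by -0.203. Over the whole class 3304 units gained share and 2930 lost it.

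The higher share of the 300 to under 600 codon class was not a gain of most of its units. Of these, 5805 gained share and 5792 lost it, and 4549 transcript groups gained against 4638 that lost. The 10 units that gained most added 0.287 points and the 10 that lost most gave -0.235, so these sets largely cancelled. Without both the class differed by 0.528 points, whereas the same step left -0.162 of the -0.478 points of the shortest class. Because of the cancelling, this step does not measure how widely the gain was spread. In abundance class 5 alone the difference was 0.597 points, more than that of the class as a whole. Of the 1750 units of this length in class 5, 28 were called higher (1.60%) and 15 lower (0.857%), against 1.49% and 1.20% in class 5 of all lengths. Of 1930 units of 91 to under 300 codons in class 5, 45 were called higher (2.33%) and 23 lower (1.19%), while their share of counts was 24.3% and 25.5% in WT and 24.96% and 24.85% in Het. More called rises thus did not go with a higher share there, where Ribo_6026_WT and Ribo_6028_WT stood furthest apart.

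Long units of low abundance had the most negative medians. Among units of 2000 codons or more the median change was -0.47 in abundance class 1 (49 units), -0.26 in class 2 (38), -0.17 in class 3 (41), -0.033 in class 4 (103) and -0.057 in class 5 (320). For 1000 to under 2000 codons the medians were -0.32 (223 units), -0.081 (257), -0.033 (425), -0.025 (803) and -0.032 (886). In the class 1 units of 2000 codons or more the median deviations were 0.11 and 0.25 in Ribo_6026_WT and Ribo_6028_WT and -0.038 and -0.21 in Ribo_6136_hetero and Ribo_6139_hetero, so neither Het library reached a WT value. Their median was 11.5 counts a library. The interquartile range of their Het minus WT difference was 1.1, and the range computed from the replicates was 0.92.

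Detection of units was similar in both genotypes. Of 45864 units, 41616 and 39218 had a count in WT and 40702 and 41282 in Het. After thinning all libraries to the total of Ribo_6028_WT the numbers were 38582 and 39218 in WT and 38611 and 38356 in Het, so Ribo_6028_WT detected more units than the other 3 at equal totals. As deposited, 323 units had counts in both WT libraries and in neither Het library, and 405 had the reverse. None of these exceeded 13 counts in a library, so they lie at the lower limit of detection. With the libraries thinned the numbers turned around, to 517 and 342. Units of up to 90 codons gave 20 and 48 as deposited and 83 and 80 with thinning, and units of 2000 codons or more gave 1 and 1, then 13 and 6.

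Of the called units, the 2 largest rises and 2 largest falls with a mean of at least 50 counts are given by transcript ID, 1 per transcript group. ENSMUST00000113513.8, of 401 codons, had 0.735 and 2.09 CPM in WT, from 10 counts in each library, and 7.47 and 8.91 CPM in Het, from 71 and 119 counts. Both Het libraries were over 3 times the higher WT library. The log2 change was 2.90 (SE 0.31, edgeR adjusted p 9.0e-05), from 1.41 ± 0.96 to 8.19 ± 1.0 CPM (SD, n = 2). The log2 change was 3.48 without Ribo_6028_WT and 1.99 without Ribo_6026_WT. All 4 units of its transcript group were called. In KO it was 1.36 and 1.79 CPM, with a KO vs WT log2 change of 0.48 that was not called (edgeR adjusted p 0.42).

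ENSMUST00000185863.7, of 103 codons, had 20.2 and 26.8 CPM in WT and 61.6 and 78.7 CPM in Het. The genotypes were far apart relative to their replicates, 23.5 ± 4.6 against 70.1 ± 12 CPM (SD, n = 2). The log2 change was 1.66 (SE 0.14, edgeR adjusted p 9.5e-06). The KO libraries, at 33.5 and 25.96 CPM, had a KO vs WT log2 change of 0.43, which was called (edgeR adjusted p 0.043). Per 100 codons its level was 22.8 CPM in WT and 68.1 in Het, where the median of its length class was 3.58 and 3.56 CPM in the WT libraries.

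ENSMUST00000053950.10, of 358 codons, had 12.5 and 32.6 CPM in WT and 1.79 and 7.26 CPM in Het. Both genotypes varied, 22.6 ± 14 and 4.53 ± 3.9 CPM (SD, n = 2), but did not overlap. The log2 change was -1.95 (SE 0.42, edgeR adjusted p 0.033). The call was lost without Ribo_6136_hetero (log2 change -1.38, edgeR adjusted p 0.20), with only the WT and Het libraries fitted (edgeR adjusted p 0.067) and by DESeq2 (adjusted p 0.79). In KO it stood at 1.801 and 3.13 CPM, a KO vs WT log2 change of -3.01 (edgeR adjusted p 5.7e-05).

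ENSMUST00000090973.12, of 1855 codons, had 9.34 and 5.86 CPM in WT and 2.84 and 1.72 CPM in Het. Its log2 change was -1.90 (SE 0.28, edgeR adjusted p 0.0017), from 7.60 ± 2.5 to 2.28 ± 0.79 CPM (SD, n = 2). The call was lost without Ribo_6026_WT (edgeR adjusted p 0.11) and without Ribo_6139_hetero (edgeR adjusted p 0.11), with log2 changes of -1.40 and -1.54. In KO it had 0.527 and 0.959 CPM, with a KO vs WT log2 change of -3.53. The Het and KO comparisons share the WT libraries, so their values are set side by side and were not tested against each other.

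**Figure D5:**
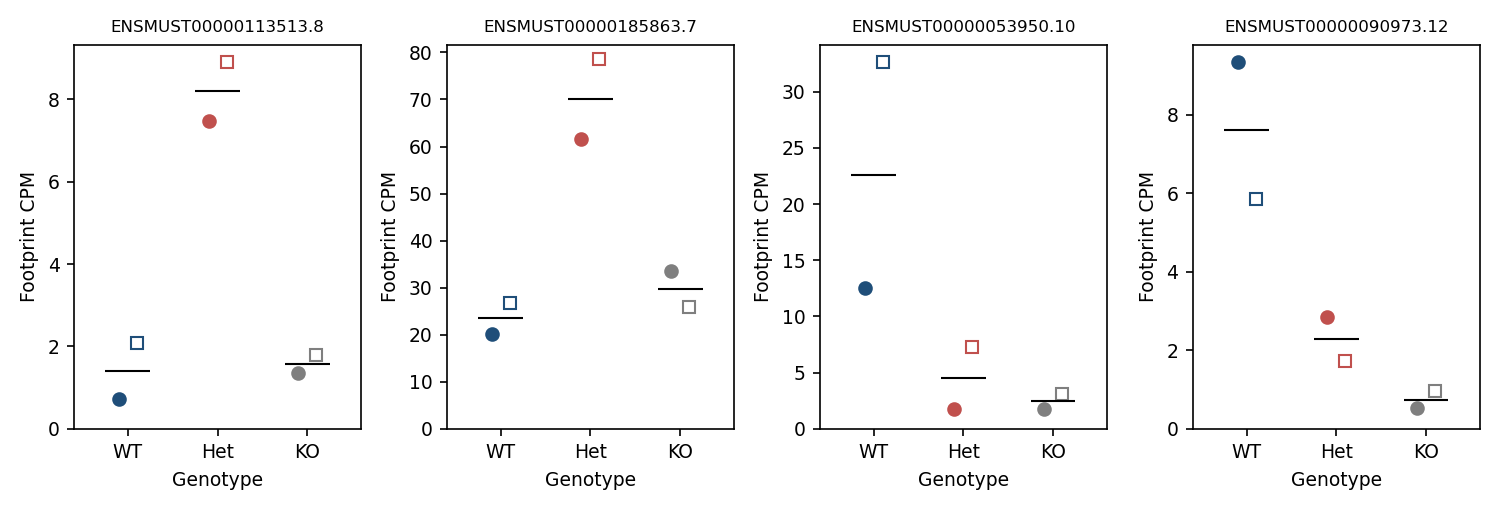
Footprint CPM of the 4 named units in each library, on linear axes from 0, with bars for genotype means of 2 libraries. The first pair is highest in Het, at 8.19 and 70.1 CPM in the mean. In the second pair the means fall from WT to Het to KO, but both KO libraries of ENSMUST00000053950.10 lie between its Het libraries.

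RNA-seq of the same genotypes gave a readout that the footprint test did not use, although its libraries carry the same organoid numbers. It held 385621 and 333071 unit counts in WT and 672564 and 479956 in Het, so only 85 of the 311 called units could be tested in RNA. Of these, 63 (74.1%) had an RNA change of the same sign as the footprint change, against 57.3% of the 9094 units tested in both assays. Units of a shared transcript group count separately here. The 44 with higher footprints had a median RNA change of 0.52 on the log2 scale, and the 41 with lower footprints had -0.33. edgeR called 13 of the 85 in RNA, each in the direction of its footprints, where 3.45% of the 9215 units tested in RNA were called. Among all units tested in both assays, 236 of the 304 called in RNA also had footprints of the same sign. With a median standard error of 0.33 for the RNA change of the called units, RNA changes of the size of most footprint changes could not be resolved.

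By length, RNA and footprint medians of the units tested in both assays had the same sign in 5 of the 6 length classes. The RNA median was -0.15 for up to 90 codons (120 units), -0.013 for 91 to under 300 (1698) and 0.050 for 300 to under 600 (2443). It was 0.033 for 600 to under 1000 (2437), -0.046 for 1000 to under 2000 (1923) and -0.033 for 2000 or more (473). The footprint medians of the same units were -0.013, 0.0095, 0.0066, 0.00049, -0.032 and -0.072, of the opposite sign at 91 to under 300 codons. Not all of these signs hold beyond the units tested in RNA. Over all units tested in footprints the median was 0.020 for up to 90 codons and -0.0046 for 600 to under 1000, each of the other sign. As a share of RNA counts, units of up to 90 codons held 1.59% and 1.64% in WT and 1.70% and 1.64% in Het, and were not lower in Het. Units of 300 to under 600 codons held 21.4% and 22.0% in WT and 23.0% and 22.9% in Het, higher in both Het libraries by 1.23 points in the mean, as their share of footprints was. Units of 2000 codons or more held 13.3% and 12.7% of RNA counts in WT and 11.4% and 12.0% in Het. In RNA the longest class was therefore lower in both Het libraries, whereas in footprints its share overlapped between the genotypes. From 1000 to under 2000 codons RNA shares were likewise lower in Het, 20.70% and 21.39% against 21.92% and 21.48% in WT. From 91 to under 300 codons they were higher in Het, 20.48% and 19.75% against 19.47% and 19.50%. Footprint shares overlapped in both of these classes.

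Of the 4 named units only ENSMUST00000090973.12 could be tested in RNA, where 22 and 17 counts in WT and 19 and 20 in Het gave a log2 change of -0.73 (SE 0.33, edgeR adjusted p 0.24). The other 3 had at most 6 RNA counts in any WT or Het library. Whether their footprint changes came with RNA changes was therefore not detectable at this depth.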

How the data were processed

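Per the labels' protocols, footprints were made with RNase I, linker ligation, rRNA depletion, in vitro transcription and PCR, and RNA-seq with a stranded kit. Per the submitters' processing notes, CASAVA 1.8, cutadapt 3.7, UMI-tools 1.1.2, STAR 2.7.0a and build mm39 were used, with no role or order given; whether counts are of molecules or reads, the annotation and the counting tool are not given in the sources used here. The authors deposited raw counts per transcript in tables of 278268 rows without headers. A second column, present in 66495 rows, ran from -9 to 35381. Since 33.2% of its values were multiples of 3, it was read as codons and not bases. Rows of length above 0 with identical counts in all 12 tables were joined (63239 rows, 45864 units; the median length stood for a unit). Of these, 1027 spanned over 25 rows and may join unrelated transcripts. Transcript groups joined rows at most 25 rows apart whose counts differed by less than sampling noise in a chi-square test, or whose log2 ratio had an SD under 0.15.

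Counts of the 6 footprint libraries were fitted with edgeR 4.0.16 (R 4.3.3): TMM, filterByExpr on the 4 WT and Het libraries, quasi-likelihood F tests with 3 residual degrees of freedom, and Benjamini-Hochberg adjustment, with calls under 0.05, two-sided. RNA-seq was fitted likewise. DESeq2 1.42.0 was an alternative. On simulated footprint counts (31190 units), 51 of 100 units changed 1.5-fold and 83 of 100 changed 2-fold were recovered, with 9 false calls (6.29%). Sparse units, averaging under 20 counts, were given no change in the simulation. The recovery rates therefore do not cover them. Named units were called, had a mean of at least 50 counts and no overlap between genotypes, and were ranked by change, 1 per transcript group. Classes and rules were chosen with earlier results of these data known.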

Additional observations from a re-analysis of the deposited data

How the results depend on the processing

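The number of calls moved by over 1.5 times without a count filter (1014), with DESeq2 (128), with only WT and Het fitted (174) and, by construction, where a call also had to be at least 2-fold (87). Leaving out each library gave 116 to 411. The cause was not tested. The other 7 alternatives stayed within that fold. Leave-one-out medians of the log2 change ranged from -4.3e-05 to 0.038 for up to 90 codons, -0.00089 to 0.024 for 91 to under 300, -0.0023 to 0.015 for 300 to under 600, -0.059 to -0.027 for 1000 to under 2000 and -0.099 to -0.027 for 2000 or more. By abundance they ranged from -0.011 to 0.0098 in class 1, -0.026 to 0.0086 in class 2, -0.0063 to 0.0095 in class 3, 0.00078 to 0.0095 in class 4 and -0.0083 to 0.0063 in class 5. Abundance medians also moved beyond the replicate SD with thinning (0.066 in class 1, 0.0069 in class 4), KO abundance (-0.028 in class 1), CPM per 100 codons (-0.028 in class 1, 0.011 in class 5) and library totals (-0.0016 in class 4). Differences in shares of counts changed sign when libraries were left out, from -0.549 to 0.527 points for 91 to under 300 codons, -0.121 to 0.019 for 600 to under 1000, -0.205 to 0.227 for 1000 to under 2000 and -0.227 to 0.128 for 2000 or more. Calls among abundant short units, an alternative chosen after seeing the data, were 51 without a count filter. No paired analysis was possible because WT and Het carry different organoid numbers.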
